A study of Mus musculus with 7 samples.

Results

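The collagen chains of the mouse carotid artery were compared between ApoE-/+ offspring whose ApoE-/- parent was the father and those whose ApoE-/- parent was the mother. Collagen genes were taken as all genes whose single annotated symbol on the Affymetrix Mouse 430 2.0 array has the form of a collagen chain name, which gave 42 of 18193 genes, with 82 probe sets. A gene was represented by its probe set with the highest mean signal over the 7 arrays. Of the 42 chains, 28 passed the filter on low signals and were tested among 12707 measured genes, and 14 did not. All offspring were ApoE-/+, with 1 null allele of Apoe, which encodes a ligand for the clearance of lipoproteins. In the wild-type mother group (n = 3 arrays) the mother was normocholesterolemic and the father was ApoE-/-, and in the ApoE-null mother group (n = 4 arrays) the mother was ApoE-/- and hypercholesterolemic and the father was wild type. Both parents differed between the groups, and maternal and paternal effects cannot be told apart. The labels give no age, sex, strain, litter or pooling. Whether each array is a separate animal is also not stated, so p-values measure only the spread between these samples. The study concerned how parental cholesterol bears on atherosclerosis in the offspring.

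Collagens are proteins of 3 chains wound into a triple helix. The fibrillar collagens are types I, II, III, V, XI, XXIV and XXVII, of which I, III and V form the tensile fibrils of the adventitia and media. Type IV forms the sheet-like network of the basement membranes under endothelium and around smooth muscle cells. The remaining types bind to fibrils, form fine filaments or short-chain networks, or sit in cell membranes. In arteries, smooth muscle cells and adventitial fibroblasts make most of this matrix, and in atherosclerotic plaques collagen made by smooth muscle cells builds the fibrous cap.

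The arrays had median signals of 36 to 42.1, and 61.9% to 74.7% of their probe sets lay above the highest of 27 probe sets for bacterial transcripts, which served as the background level (10 to 22 per array). The array of wild-type mother 2 stood apart. Its signal for Xist, the transcript of the inactive X chromosome, was 41.2 against at least 5174 on each other array. Its ratio of 3 prime to 5 prime Gapdh signal was the highest (7.80 against 5.03 to 6.56). Its 6 skeletal muscle markers summed to 1894 against 127 to 238 on the others. Low Xist thus occurred only in the wild-type mother group, and the labels give no sex. These traits fell on the same array, so their parts in a group difference cannot be told apart. The tissue was labelled as carotid artery, and its defining smooth muscle markers were present, with signals of 9492 to 13536 for Acta2, 4450 to 6051 for Myh11 and 5671 to 7716 for Tagln. The fibroblast markers Pdgfra (1248 to 1846), Lum (3779 to 5543) and Dpt (4205 to 5910) were also above background on every array. Signals of different probe sets are not amounts and are not ranked against each other here.

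None of the 28 measured chains passed the test between the crosses (limma, adjusted p = 0.278 to 0.978 over all probe sets, threshold 0.05), where 1 of 12707 genes, or 0.00787%, and 0.0037% of all probe sets were called. The log2 difference, ApoE-null mother minus wild-type mother on the log2(signal + 2) scale, was negative for 23 chains and positive for 5, or 82.1% negative against 51.2% of all measured genes. The median difference was -0.11, beside -0.0082 over all measured genes. At an unadjusted p under 0.05, 4 chains were lower with an ApoE-null mother and 0 were higher, that is 14.3% lower against 4.22% of all measured genes (4.43% of which were higher). These 4 were the fibrillar chains Col5a3 and Col27a1 and the non-fibrillar chains Col15a1 and Col19a1. Only Col5a3 had groups that did not overlap, 1 of 28 or 3.57%, against 4.23% of all measured genes that lay lower without overlap, and 0 lay higher without overlap, against 4.34%. The count of 4 was 2 without ApoE-null mother 2, ApoE-null mother 3 or ApoE-null mother 4, and the count of negative chains was 20 without wild-type mother 2. Without wild-type mother 2 the count stayed at 4 but held other chains. Col5a3 was still among them (limma, unadjusted p = 0.000252). Col15a1, Col27a1 and Col19a1 were not (limma, unadjusted p = 0.0764, 0.0826 and 0.118), and Col16a1, Col11a1 and Col23a1 were (limma, unadjusted p = 0.0300, 0.0481 and 0.0485). Chains share cells and arrays and are not independent of each other. In a bulk sample, fewer cells of a type and less RNA per cell cannot be told apart.

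**Figure D1:**
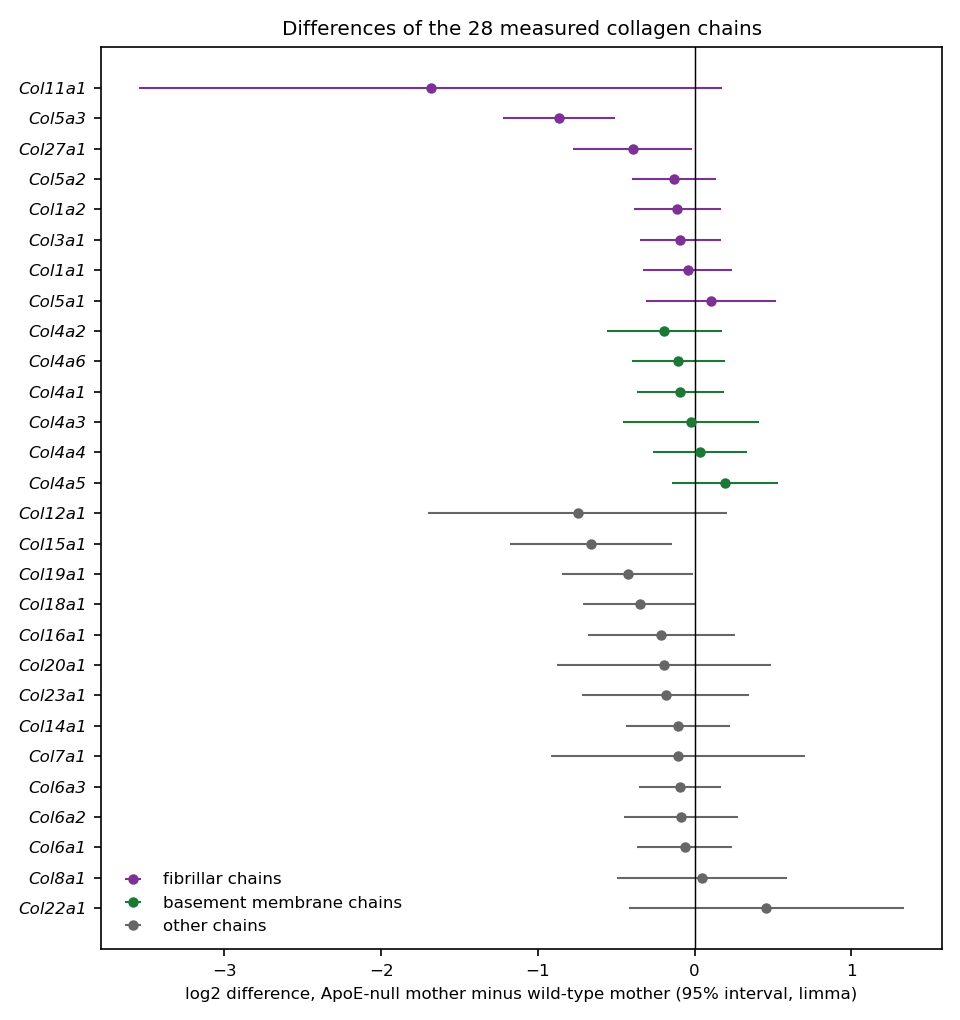
The plot gives the log2 difference of each of the 28 measured collagen chains with its 95% interval from limma, with fibrillar, basement membrane and other chains in separate blocks. Of the points, 23 lie left of 0, the intervals of 4 chains exclude 0, and Col5a3 (-0.87) lies farthest from 0 relative to its interval.

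On their strongest probe sets the main fibrillar chains did not separate the groups. Col1a1 and Col1a2 encode the chains of type I collagen, the main fibril of the adventitia. The signal of Col1a1 was 1180.5, 1264.7 and 1111.7 with a wild-type mother and 1292.2, 1158.8, 1050.7 and 1105.2 with an ApoE-null mother. That of Col1a2 was 8878.5, 11458.5 and 9726.6 against 10152.3, 8627.6, 8259.2 and 10054.2. The ranges of the groups overlapped for both genes, and the log2 differences were -0.04 for Col1a1 (95% interval, here and below, -0.33 to 0.24) and -0.11 for Col1a2 (interval -0.39 to 0.17). Col3a1 encodes type III collagen, the fibrillar collagen of distensible tissues whose human counterpart is mutated in vascular Ehlers-Danlos syndrome. Its signals were 8548.0, 10848.2 and 8968.1 against 9448.4, 8503.8, 8216.5 and 9202.1. The highest value came from wild-type mother 2, and the log2 difference was -0.09 (interval -0.35 to 0.17), or 0.01 without that array, which also brought Col1a1 to 0.0034 and Col1a2 to -0.0090. The intervals of these 3 genes together ran from -0.39 to 0.24. On the mean of its 2 measured probe sets Col1a1 gave -0.38 (limma, unadjusted p = 0.0234, adjusted p = 0.557). The weaker measured probe sets gave -0.71 for Col1a1, without overlap of the groups. With overlap, they gave -0.30 for Col3a1 and -0.07 and -0.24 for Col1a2.

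Type V collagen, which co-assembles with type I and sets fibril diameter, is built from the products of Col5a1, Col5a2 and Col5a3. On their strongest probe sets these chains differed in how they lay between the crosses. The signal of Col5a1 was 1252.8, 1883.7 and 1566.2 with a wild-type mother and 2181.8, 1753.0, 1426.6 and 1396.8 with an ApoE-null mother, so the groups overlapped (log2 difference 0.10, SE 0.19). Col5a2 had 3007.1, 3770.1 and 3430.9 against 2983.1, 2926.2, 3113.3 and 3378.3, again with overlap (log2 difference -0.13, SE 0.12). Further measured probe sets gave -0.32 and -0.26 for Col5a1 and 0.04 for Col5a2, so the direction of both chains differed between probe sets. Col5a3, the third type V chain, had 227.0, 182.0 and 214.4 against 119.4, 104.8, 111.8 and 114.7. The highest ApoE-null mother array lay below the lowest wild-type mother array, and the 4 low values were close together (113 ± 6.11, SD, n = 4, against 208 ± 23.2, SD, n = 3). The difference of Col5a3 was -0.87 on the log2 scale (SE 0.16, interval -1.22 to -0.51), 1.82-fold lower, with the smallest p of all chains (limma, unadjusted p = 0.000226) and an adjusted p of 0.278, so it did not pass. It was -0.96 to -0.80 when each array was left out in turn, and over all alternatives its adjusted p ranged from 0.158 to 0.794. A further probe set for Col5a3 had a mean signal of 2.97, below the bacterial probe sets.

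**Figure D2:**
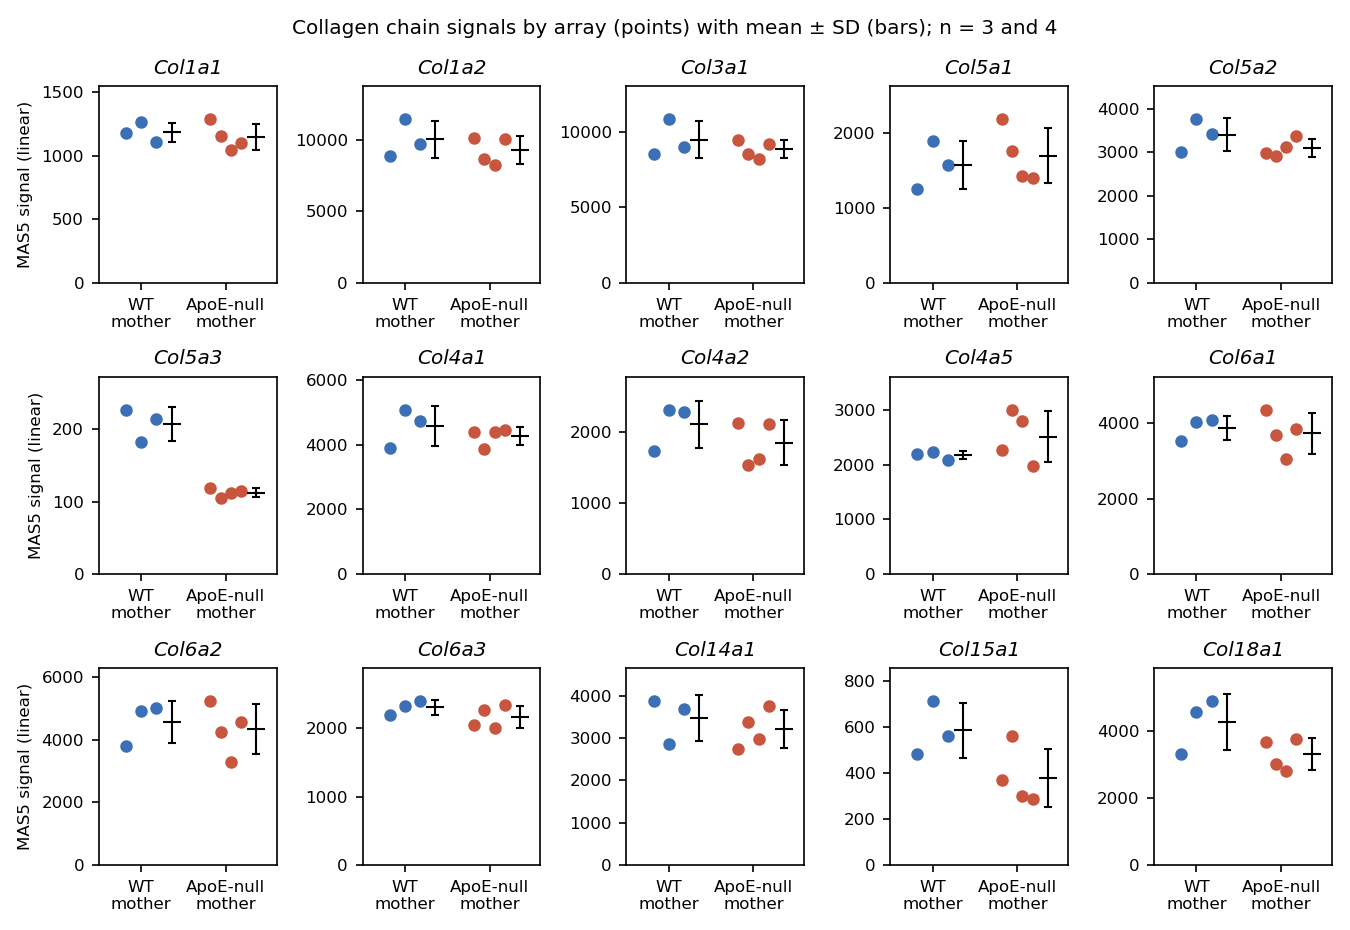
The plots show the MAS5 signal of 15 collagen chains on each array (points) with the mean and SD of each group (bars, n = 3 and n = 4), on linear axes that start at 0. The points of the groups overlap for every chain shown but Col5a3, where the ApoE-null mother arrays sit between 104.8 and 119.4 and the wild-type mother arrays between 182.0 and 227.0.

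Windows around the annotated start of fibrillar genes are shown to set Col5a3, the chain that lay apart, beside the main fibrillar chains Col1a2 and Col3a1. They run from 250 bases before to 50 bases after a transcript start in RefSeq, build GRCm38.p6 (Col5a3 at chr9:20815018-20815317, minus strand; Col1a2 at chr6:4505368-4505667, plus strand; Col3a1 at chr1:45311288-45311587, plus strand), and capitals mark the CCAAT motif, the GC box GGGCGG and the TATA motif TATAAA on either strand.
Col5a3: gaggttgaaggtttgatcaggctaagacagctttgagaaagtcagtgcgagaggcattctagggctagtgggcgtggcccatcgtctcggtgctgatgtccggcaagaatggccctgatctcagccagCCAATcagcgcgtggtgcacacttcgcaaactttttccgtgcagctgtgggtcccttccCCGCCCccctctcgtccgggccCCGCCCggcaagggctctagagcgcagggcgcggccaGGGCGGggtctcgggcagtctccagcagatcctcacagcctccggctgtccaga
Col1a2: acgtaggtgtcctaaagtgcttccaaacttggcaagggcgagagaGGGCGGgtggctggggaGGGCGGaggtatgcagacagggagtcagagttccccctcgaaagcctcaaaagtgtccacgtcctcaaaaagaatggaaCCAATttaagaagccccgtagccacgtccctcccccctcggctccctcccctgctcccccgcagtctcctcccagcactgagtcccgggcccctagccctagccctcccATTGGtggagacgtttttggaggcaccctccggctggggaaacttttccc
Col3a1: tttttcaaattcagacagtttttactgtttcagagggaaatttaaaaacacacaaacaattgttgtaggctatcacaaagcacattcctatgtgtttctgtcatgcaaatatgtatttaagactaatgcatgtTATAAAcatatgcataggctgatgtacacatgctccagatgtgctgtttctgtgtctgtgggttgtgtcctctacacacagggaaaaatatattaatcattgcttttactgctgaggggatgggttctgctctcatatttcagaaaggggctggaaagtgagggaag

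The Col5a3 window holds CCAAT at -122 and GGGCGG at -4, and the reverse complement of GGGCGG at -63 and -41, counted from the start that the window uses. For Col5a3 that start lies 50 bases inside the outer end of the annotated gene, and for Col1a2 and Col3a1 it is the outer end itself. The Col1a2 window holds GGGCGG at -205 and -188, CCAAT at -109 and its reverse complement at 1, and that of Col3a1 holds TATAAA at -117 and neither of the other motifs. CCAAT occurred in 37.4% of all 32851 promoter windows of the same length and in 13 of the 36 windows of collagen genes (36.1%). GGGCGG occurred in 35.7% of all windows and in 61.1% of those of collagen genes, and TATAAA in 13.6% and 13.9%. Windows were found for 33 of the 42 chains, and no motif contains another, although neighbouring matches can share an end base. A match is a description of letters only.

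Of the minor fibrillar chains, Col27a1, a fibrillar chain of cartilage and developing tissues, had 196.8, 216.3 and 223.9 with a wild-type mother and 200.2, 150.9, 159.1 and 138.9 with an ApoE-null mother. Only ApoE-null mother 1 reached the range of the other group, and the log2 difference was -0.40 (SE 0.17; limma, adjusted p = 0.60), or -0.38 without wild-type mother 2. Its other measured probe set gave 0.23, so the direction of Col27a1 differed between its probe sets. Col11a1, a chain of type XI collagen best known from cartilage, had 49.3, 20.8 and 69.9 against 40.3, 11.8, 23.8 and 0.3, at or below background on 3 of the 7 arrays. Its log2 difference of -1.68 had an SE of 0.85 and was -0.83 without ApoE-null mother 4, whose signal of 0.3 was at background. Col11a2 (4.5 to 30.4), Col2a1 (1.7 to 9.3) and Col24a1 (0.4 to 4.8) did not pass the filter, and Col2a1 and Col24a1 were at or below background on every array. The 8 measured fibrillar chains had a median difference of -0.12, with 7 negative. That median was -0.03 without wild-type mother 2, on which 8 of 8 fibrillar chains were above their own mean over the arrays.

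All 6 type IV chains were measured, and none had an unadjusted p under 0.05 (0.238 to 0.898). Col4a1 and Col4a2 encode the chains of the basement membrane network found in nearly all vessels, and in humans COL4A1 variants cause disease of small vessels. Col4a1 had signals of 3902.3, 5077.4 and 4746.3 against 4381.7, 3866.3, 4389.0 and 4463.7, and Col4a2 had 1722.8, 2305.6 and 2278.1 against 2120.9, 1532.8, 1612.8 and 2105.5. The groups overlapped for both, with log2 differences of -0.09 (interval -0.37 to 0.18) and -0.19 (interval -0.56 to 0.17). Both were lowest on ApoE-null mother 2 and highest on wild-type mother 2.

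Col4a5 and Col4a6, which are X-linked, encode chains found together in basement membranes of arterial smooth muscle. Col4a5 had 2193.6, 2228.1 and 2087.9 against 2268.5, 3000.9, 2803.4 and 1977.6. The ApoE-null mother group held both the highest and the lowest value, and its SD (472, n = 4) was larger than that of the other group (73.1, n = 3). The log2 difference of 0.19 (interval -0.15 to 0.53) was the largest positive difference among the type IV chains on their strongest probe sets. Col4a6 had 748.3, 775.6 and 916.8 against 745.4, 783.2, 706.0 and 783.9, a log2 difference of -0.10. Its other measured probe set gave 0.25, so the direction of Col4a6 differed between its probe sets. On wild-type mother 2, the array with low Xist signal, both X-linked chains lay within the range of the other arrays. Col4a3 and Col4a4 encode chains of the mature glomerular basement membrane of the kidney. Col4a3 had 128.9, 181.3 and 140.2 against 181.7, 118.5, 142.7 and 147.2, and Col4a4 had 983.9, 885.4 and 1066.7 against 1150.8, 951.7, 949.7 and 960.2. Their differences were -0.03 and 0.03, within the spread of each group. The median over the 6 chains was -0.06, with 4 negative and 2 positive.

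Type IV genes lie in head-to-head pairs. The annotated genes Col4a1 and Col4a2 lie on opposite strands of chromosome 8 and overlap by 85 bases at their starts, and Col4a3 and Col4a4 overlap by 114 bases on chromosome 1, while Col4a5 and Col4a6 are separated by 1274 bases on the X chromosome. The start windows of Col4a1 (chr8:11312777-11313076, minus strand) and Col4a2 (chr8:11312555-11312854, plus strand), from RefSeq on GRCm38.p6, are printed because they overlap, and capitals mark the 78 bases they have in common (11312777 to 11312854), read on opposite strands. The Col4a1 window uses a start 63 bases inside the outer end of the gene, from which the overlap with Col4a2 is 22 bases.
Col4a1: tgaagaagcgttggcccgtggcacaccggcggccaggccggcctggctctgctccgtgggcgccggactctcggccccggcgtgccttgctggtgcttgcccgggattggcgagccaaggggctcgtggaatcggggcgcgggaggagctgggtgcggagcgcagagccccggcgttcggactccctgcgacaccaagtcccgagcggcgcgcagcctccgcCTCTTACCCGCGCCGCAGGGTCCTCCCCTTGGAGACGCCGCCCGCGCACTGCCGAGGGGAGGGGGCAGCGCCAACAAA
Col4a2: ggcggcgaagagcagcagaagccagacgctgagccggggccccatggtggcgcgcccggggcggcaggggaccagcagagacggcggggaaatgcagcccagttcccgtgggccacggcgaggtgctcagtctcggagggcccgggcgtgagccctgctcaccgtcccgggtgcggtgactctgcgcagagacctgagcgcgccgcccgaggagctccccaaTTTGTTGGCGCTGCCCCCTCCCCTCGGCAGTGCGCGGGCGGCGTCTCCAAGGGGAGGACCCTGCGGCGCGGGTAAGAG

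The Col4a2 window holds CCAAT at -32 and GGGCGG at -192 and 8, and the reverse complement of GGGCGG at -48. The Col4a1 window holds the reverse complement of CCAAT at -145 and that of GGGCGG at 10. The GGGCGG match of Col4a1 at 10 and that of Col4a2 at 8 are the same bases, inside the shared stretch and read on opposite strands. Of the 5 type IV windows, 4 held GGGCGG, 3 held CCAAT and 0 held TATAAA. That shared site counts for both windows here and in the 61.1% of collagen windows.

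Whether chains that share a helix or a locus varied together over the arrays was read from 6 pairs, with exact permutation tests on both sides and Benjamini-Hochberg adjustment over the 6. Col6a1 and Col6a2, chains of the same type VI trimer whose genes lie 85161 bases apart on chromosome 10, varied together (Pearson r = 0.988, exact permutation p = 0.000198, the smallest that the 7 arrays can give, adjusted 0.00119; Spearman rho = 1, exact permutation p = 0.000397, also the smallest possible, adjusted 0.00238). The correlation was 0.995 without the 2 arrays farthest from the median of Col6a1 and 0.988 for deviations from the group means, so it held within the crosses. Col4a1 and Col4a2 had r = 0.828 (exact permutation p = 0.0179, adjusted 0.0536) and rho = 0.821 (exact permutation p = 0.0341, adjusted 0.102), with r = 0.661 without wild-type mother 2 and ApoE-null mother 2. This pair did not pass after adjustment.

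The other pairs did not pass either. Col3a1 and Col5a2, neighbours on chromosome 1 with 24624 bases between them, had r = 0.747 (exact permutation p = 0.0435, adjusted 0.0869) and rho = 0.464 (exact permutation p = 0.302, adjusted 0.363). Without wild-type mother 2 and ApoE-null mother 3, the arrays farthest from the median of Col3a1, r was 0.364. Leaving out the farthest arrays narrows the range and can itself lower r, here and for the pairs below. Col1a1 and Col1a2 had r = 0.639 (exact permutation p = 0.125, adjusted 0.187) and rho = 0.643 (exact permutation p = 0.139, adjusted 0.278), and r = 0.453 without ApoE-null mother 1 and ApoE-null mother 3. Col4a3 and Col4a4 had r = 0.185 (exact permutation p = 0.724, adjusted 0.724) and rho = 0.0714 (exact permutation p = 0.906, adjusted 0.906), and r = 0.194 without ApoE-null mother 1 and wild-type mother 2. Col4a5 and Col4a6 had r = -0.422 (exact permutation p = 0.357, adjusted 0.428) and rho = -0.571 (exact permutation p = 0.200, adjusted 0.300), and r = -0.453 without ApoE-null mother 2 and ApoE-null mother 3. All pairs were read from the same RNA and the same arrays. Unrelated genes were not set beside them, so whether a shared helix or locus bears on these correlations was not tested. The mean deviation of the 6 smooth muscle markers was -0.25, 0.14 and 0.23 on the wild-type mother arrays. On the ApoE-null mother arrays it was 0.22, -0.21, -0.25 and 0.11. The deviations of Col6a1 were -0.10, 0.10 and 0.11 against 0.21, -0.03, -0.31 and 0.02, so the order of the arrays was not the same. The mean deviation of the 7 fibroblast markers was also lowest on ApoE-null mother 3 (-0.25). Whether cell content bears on the pair was not tested. For deviations from the group means, r was 0.801 for Col4a1 with Col4a2, 0.701 for Col3a1 with Col5a2, 0.616 for Col1a1 with Col1a2, 0.196 for Col4a3 with Col4a4 and -0.260 for Col4a5 with Col4a6. The labels give no batch within which to repeat the relations.

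**Figure D3:**
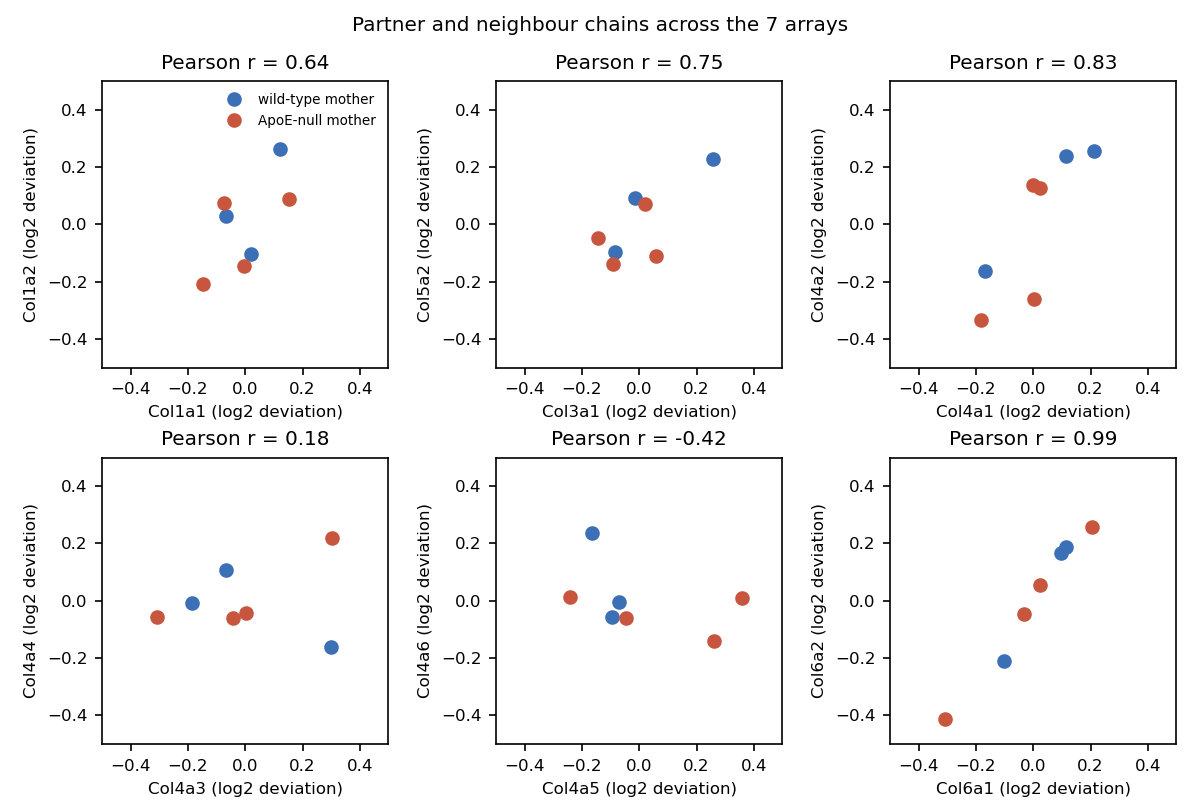
Each panel sets the log2 deviation of 1 collagen chain from its mean over the 7 arrays against that of its partner or neighbour, with wild-type mother arrays in blue and ApoE-null mother arrays in red. Col6a1 and Col6a2 lie along a line (r = 0.99), Col4a1 and Col4a2 less closely (r = 0.83), and Col4a5 and Col4a6 do not follow a common line (r = -0.42).

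Type VI collagen forms beaded filaments between cells and fibrils. Col6a1 had signals of 3517.1, 4040.0 and 4087.8 with a wild-type mother and 4355.7, 3695.9, 3046.5 and 3837.6 with an ApoE-null mother, and Col6a2 had 3801.5, 4932.2 and 5009.4 against 5246.8, 4250.9, 3303.2 and 4563.5. Both were highest on ApoE-null mother 1 and lowest on ApoE-null mother 3, so the largest gap lay inside a group. Col6a3, the largest chain of the trimer, had 2185.3, 2323.5 and 2399.5 against 2048.7, 2259.7, 2000.9 and 2342.3. Log2 differences were -0.06, -0.09 and -0.09 for the 3 genes, with SEs of 0.14, 0.17 and 0.12. Those of Col6a1 and Col6a2 were 0.03 and 0.04 without ApoE-null mother 3. Col6a4 and Col6a5 did not pass the filter.

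The multiplexins Col15a1 and Col18a1, proteoglycan-like collagens that link basement membranes to the underlying matrix, both had negative differences. Col15a1 had signals of 480.8, 713.1 and 560.1 with a wild-type mother and 367.6, 561.5, 298.8 and 285.4 with an ApoE-null mother. Only ApoE-null mother 2 lay in the range of the other group, and the difference was -0.66 on the log2 scale (SE 0.24, interval -1.18 to -0.14; limma, unadjusted p = 0.0171, adjusted p = 0.551), or 1.58-fold lower. Leaving out each array in turn gave -0.87 to -0.51. Col18a1, the precursor of the anti-angiogenic fragment endostatin, had 3318.3, 4563.1 and 4907.3 against 3670.4, 3030.1, 2812.0 and 3769.4, with a difference of -0.35 (interval -0.71 to 0.01; limma, adjusted p = 0.610) and -0.19 on its other measured probe set. The ranges of Col18a1 overlapped between 3318.3 and 3769.4.

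Among the fibril-associated chains, which coat fibril surfaces, Col14a1 had 3880.8, 2857.0 and 3689.2 against 2751.5, 3371.5, 2983.0 and 3761.1, with full overlap and a difference of -0.11. Col12a1 had 120.0, 83.7 and 30.3 against 26.1, 47.2, 60.7 and 32.3. The wild-type mother arrays alone spread from 30.3 to 120.0, and the difference of -0.75 (SE 0.43) was -0.34 when wild-type mother 1 was left out and -1.30 when wild-type mother 3 was. Col16a1 had 215.2, 120.8 and 193.7 against 158.4, 152.7, 125.9 and 156.6, with the lowest value on wild-type mother 2 and a difference of -0.21, or -0.46 without that array. Col19a1, a chain of basement membrane zones, had 146.9, 178.8 and 169.3 against 154.8, 123.4, 99.4 and 115.9. Of these only ApoE-null mother 1 lay within the wild-type mother range, and the difference was -0.43 (SE 0.19; limma, unadjusted p = 0.0455, adjusted p = 0.601), or -0.37 without wild-type mother 2, but -0.15 on its other measured probe set. Col22a1, a chain of muscle-tendon junctions, had 16.7, 15.6 and 24.2 against 19.4, 46.8, 22.4 and 22.7, close to background, with the largest positive difference (0.46, SE 0.40), which was 0.19 without ApoE-null mother 2.

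Col8a1, a short-chain collagen of the subendothelium that smooth muscle cells make after vessel injury, had 399.5, 357.1 and 330.5 against 284.7, 466.4, 548.8 and 266.4. The ApoE-null mother arrays split to both sides of the other group, and the difference was 0.05 (SE 0.25). Its partner Col8a2 had 10.7 to 22.2 and did not pass the filter. The membrane collagen Col23a1 had 93.4, 51.9 and 94.2 against 70.5, 62.1, 64.9 and 73.5, with a difference of -0.18 that was -0.46 without wild-type mother 2. Col7a1, of the anchoring fibrils of skin (18.7 to 49.1), and Col20a1 (21.5 to 32.4) were measured at low signals with differences of -0.10 and -0.19. The 14 measured chains outside the fibrillar and basement membrane classes had a median of -0.15, with 12 negative, and -0.06 without wild-type mother 3.

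The 14 chains below the filter included the cartilage chains Col2a1, Col9a1, Col9a2, Col9a3, Col10a1 and Col11a2, the epithelial anchor Col17a1 and the membrane chains Col13a1 and Col25a1. Of the 14, 6 were at or below background on all 7 arrays, with no signal above 11.9 (Col2a1, Col9a2, Col9a3, Col10a1, Col17a1 and Col24a1). Among the 14, the highest mean signal was 21.1 (Col25a1), and the lowest among the measured chains was 24.0 (Col22a1). Col26a1 (10.8, 23.5 and 13.0 against 3.8, 6.7, 5.2 and 8.6) was above background on the 3 wild-type mother arrays and at background on all 4 of the other group, without overlap. Its margins were narrow, as the background of the wild-type mother arrays was 10.5, 22 and 10. Col11a2 (18.8, 30.4 and 30.3 against 10.1, 17.5, 4.5 and 15) also had groups that did not overlap, with 3 of 4 ApoE-null mother arrays at background. Both chains were fitted only in the setting without a filter, where no collagen chain was called. Of all measured genes 4.23% lay lower without overlap, and no such share was taken for genes below the filter. Col6a6 and Col28a1 were not analysed here.

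**Figure D4:**
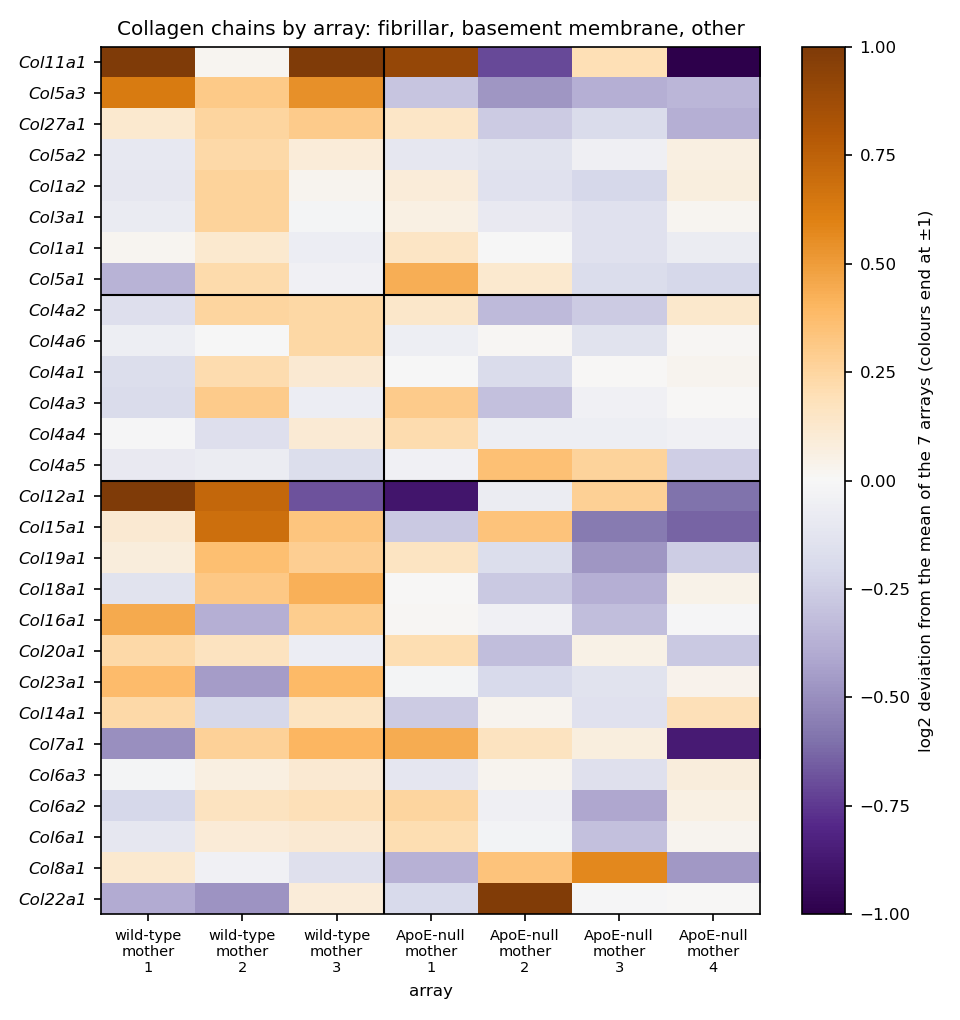
The map shows the log2 deviation of each measured collagen chain from its mean over the 7 arrays, with arrays as columns and fibrillar, basement membrane and other chains as blocks (orange higher, purple lower, colours ending at 1 and -1). Wild-type mother 2 and wild-type mother 3 have 20 of 28 chains above their mean each, ApoE-null mother 3 has 7, and the line between the groups follows no clear change of colour except for Col5a3.

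By array, the median deviation over the 28 chains was -0.04, 0.19 and 0.11 with a wild-type mother and 0.03, -0.07, -0.14 and -0.0032 with an ApoE-null mother. These medians overlapped between the groups, since wild-type mother 1 lay below ApoE-null mother 1 and ApoE-null mother 4. The mean deviation of the same chains did not overlap, with 0.08 to 0.17 on the wild-type mother arrays and -0.25 to 0.04 on the others. Nor did that of the 14 chains outside the fibrillar and basement membrane classes (0.09 to 0.14 and -0.19 to 0.05), while the means of the fibrillar chains (0.16 to 0.32 and -0.52 to 0.17) and the basement membrane chains (-0.11 to 0.09 and -0.08 to 0.09) overlapped. Such means lean on single variable chains, as Col12a1 deviated by 1.24 and Col11a1 by 1.19 on wild-type mother 1. The medians of the 14 chains also did not overlap (0.10 to 0.18 and -0.15 to -0.00073). How often other sets of genes lie apart in this way was not tested. Of the 28 chains, 12, 20 and 20 were above their own mean on the wild-type mother arrays, and 16, 9, 7 and 14 on the ApoE-null mother arrays.

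Genes with several measured probe sets gave a second reading of the same chains. Of 19 such genes, 12 had probe sets that all pointed the same way and 7 did not (Col27a1, Col5a1, Col5a2, Col4a1, Col4a4, Col4a6 and Col8a1). The 23 measured probe sets that were not the strongest of their gene had 17 negative differences (73.9%, against 50.6% of all probe sets) and a median of -0.19, and 4 had an unadjusted p under 0.05 and were lower (17.4%, against 3.95% of all probe sets), while 0 were higher (4.29% of all probe sets). None passed (limma, adjusted p of at least 0.505). A weak probe set of Col1a1 had signals of 126.1, 123.4 and 148.6 against 59.7, 84.4, 78.7 and 104.4, which do not overlap (log2 difference -0.71, SE 0.21), where the strong probe set of Col1a1 gave -0.04. A weak probe set of Col8a1 had 86.1, 102.8 and 107.4 against 57.2, 45.0, 59.3 and 78.2 (log2 difference -0.72, SE 0.23), where the strong one gave 0.05. The weaker probe sets of Col23a1 gave -0.63 and -0.61 against -0.18. These probe sets were singled out after their values were seen. Why the probe sets of Col1a1 and Col8a1 differ was not tested.

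**Figure D5:**
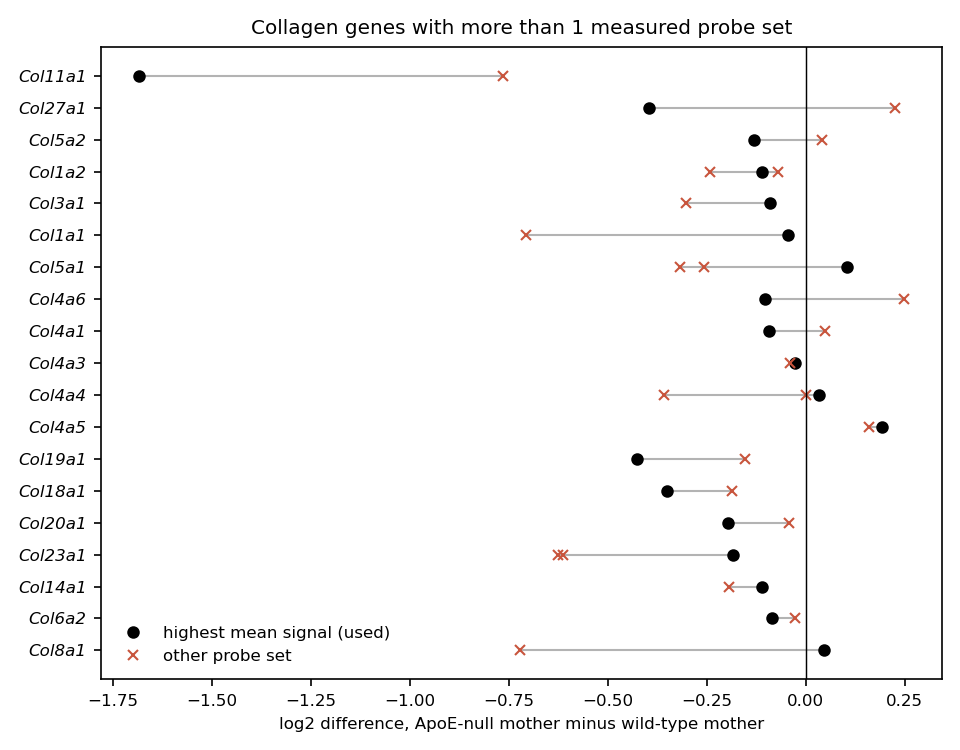
The plot shows the log2 difference of every measured probe set for the 19 collagen genes that had more than 1, with the strongest probe set (black circle, used for the gene) and the others (red cross). The distance between probe sets is largest for Col11a1, Col8a1 and Col1a1, and 7 genes have probe sets on both sides of 0.

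Genes for the folding and modification of procollagen were measured beside the chains, most of them enzymes and chaperones of the endoplasmic reticulum, with the transcription factor gene Creb3l1. All 17 measured genes of 19 listed had negative differences, with a median of -0.24, where 51.2% of all measured genes were negative, and none passed (limma, adjusted p = 0.524 to 0.996). At an unadjusted p under 0.05, 4 were lower (23.5%, against 4.22% of all measured genes) and 0 were higher. P4ha1, the catalytic subunit of prolyl 4-hydroxylase that stabilises the triple helix, had signals of 359.4, 223.8 and 369.2 with a wild-type mother and 125.9, 204.0, 173.4 and 240.4 with an ApoE-null mother, and only ApoE-null mother 4 exceeded the lowest value of the other group (log2 difference -0.77, SE 0.25). Colgalt1, which adds galactose to hydroxylysine, had 1339.8, 1345.0 and 1584.1 against 1090.4, 982.9, 999.0 and 1251.3, without overlap (log2 difference -0.40, SE 0.14). P3h3, a prolyl 3-hydroxylase family member, had a mean of 389 against 279 (log2 difference -0.49), and Colgalt2 had 38.4 against 16.8, with 2 of 4 ApoE-null mother arrays at background (log2 difference -1.31).

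For secretion, processing and crosslinking, 9 of 12 measured genes were negative (75%, against 51.2% of all measured genes) with a median of -0.22, and none passed (limma, adjusted p = 0.598 to 0.992). At an unadjusted p under 0.05, 2 were lower (16.7%, against 4.22% of all measured genes) and 0 were higher (4.43%). Loxl1, a crosslinking enzyme of the lysyl oxidase family, had a mean of 2592 ± 393 (SD, n = 3) against 2009 ± 348 (SD, n = 4), and Bmp1, the procollagen C-proteinase, 426 ± 65.9 (SD, n = 3) against 309 ± 90.5 (SD, n = 4). Mia3 and Sec24d, which act in the export of procollagen from the endoplasmic reticulum, had log2 differences of -0.31 and -0.28. For collagen receptors the median was 0.07, 2 of the 7 that were measured were negative (28.6%, against the same 51.2%) and 5 positive, and none had an unadjusted p under 0.05. The collagen-activated kinase Ddr1 gave 0.52 (limma, adjusted p = 0.615), the integrin subunits Itga10 and Itgb1 0.37 and 0.29, and the collagen uptake receptor Mrc2 -0.25. Of 8 measured genes of the TGF-beta pathway, a main inducer of collagen transcription, 5 were negative (62.5%, against 51.2%) with a median of -0.07, and 1 was lower at an unadjusted p under 0.05 (12.5%, against 4.22%). The pathway inhibitor Smad7 had 397.7, 342.6 and 408.5 against 265.3, 212.5, 233.2 and 337.7, without overlap (log2 difference -0.56; limma, adjusted p = 0.524). The ligand gene Tgfb2 gave -0.39, and the targets Ccn2 and Tgfbi -0.10 and -0.06.

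Summed markers of smooth muscle cells and fibroblasts overlapped between the groups. The 6 smooth muscle markers had sums between 23810 and 31392 on the wild-type mother arrays and between 24570 and 30770 on the others, and the 7 fibroblast markers sums of 18031 to 21224 and 16908 to 22297. Of the fibroblast markers 3 were negative and 4 positive, and Mfap5 was lower without overlap (-0.40). Markers of other cell types lay as follows. The 5 endothelial markers summed to 2791 to 3723 and 3000 to 4274 (1 negative, 4 positive), and the 5 macrophage markers to 3296 to 3820 and 3425 to 4439 (1 negative, 4 positive). The 5 thymocyte and T cell markers were all higher with an ApoE-null mother, with sums of 33.5 to 112.9 and 296.9 to 526.3. The 6 skeletal muscle markers and the 3 measured of 5 Schwann cell markers were all lower on average, with sums of 170.2 to 1894.2 and 127.1 to 194.2 for muscle, and 1300 to 4510 and 536 to 2329 for Schwann cells, overlapping in both cases. The 5 ganglion and glomus cell markers were all negative (sums of 351 to 2205 and 310 to 757). The 4 measured of 5 adipocyte markers were all positive (7645 to 21967 and 17116 to 24011). The 3 measured of 5 epithelial markers were positive, and 3 of the 5 measured cartilage markers were negative. For these lists the sums also took in markers below the filter. They were 146 to 227 and 141 to 400 for all 5 epithelial markers. For the 10 cartilage markers with a probe set they were 980 to 1375 and 784 to 1073. Single members lay apart although the sums of their lists overlapped. The Schwann cell marker Cnp (909.2 to 2060.5 and 428.6 to 822.6) and the ganglion marker Uchl1 (267.1 to 696.6 and 195.2 to 254.4) were lower without overlap. The adipocyte marker Ucp1 was higher without overlap (420.1 to 2297.1 and 3146.6 to 5059.5). Of all measured genes, 4.23% lay lower and 4.34% higher without overlap. Among the cartilage markers, Comp had 480 to 960 (log2 difference -0.41) and Matn4 15 to 222 (-1.38, the only member with an unadjusted limma p under 0.05, 0.0270), Sox9 gave -0.09, Acan and Epyc gave 0.08 and 0.47, and Matn1, Matn3, Hapln1, Chad and Cnmd did not pass the filter, with Chad at background on every array. Their part in the differences of Col5a3, Col15a1 and the other chains was not tested. Without wild-type mother 2, the array with high skeletal muscle markers, the difference of Col5a3 was -0.96 and that of Col15a1 was -0.51.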

How the data were processed

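RNA of dissected carotid arteries was amplified in 2 cycles from an oligo-dT primer, labelled with biotin and hybridised to Affymetrix Mouse 430 2.0 arrays, per the labels' protocols. Per the submitters' processing notes, the authors used MAS5 and GCOS (version not given in the sources used here) and deposited 1 linear intensity per probe set. Each array's 2% trimmed mean was 200.0, so the arrays had been scaled to one target, which was kept. Of 45101 probe sets, 34958 had a single gene symbol in the platform annotation, and all 42 collagen symbols were found in the RefSeq gene table of GRCm38.p6.

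Tests used log2(signal + 2), where 2 is the 10th percentile of the values rounded to a whole number. Adding it narrows the differences of weak genes, which still carry the noise of signals near background and depend on the value added. That of Col11a1 was -1.68 with 2 and -0.90 with 16, and that of Col22a1 was 0.46 and 0.30. The 64 control probe sets were left out and probe sets with a mean above the 40th percentile (23.6) kept, which left 27013. In limma 3.58.1 (R 4.3.3), lmFit and then eBayes with a trend on intensity were run, with Benjamini-Hochberg adjustment over all of them, a threshold of 0.05 and intervals at 95%. With 7 arrays, precision is limited by their number.

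Groups came from the cross in the labels, and arrays were numbered within a group in accession order. Signals on every array are given for chains known from the artery wall and for up to 3 further measured chains per class with the smallest unadjusted p, and for pathway lists the 4 members with the smallest p are named. Members and lists were chosen with earlier results of these data known. Alternatives were a pseudocount of 16, no filter, a filter at the 60th percentile, quantile normalization, no intensity trend, array weights, the mean of a gene's probe sets and leaving out each array.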

Additional observations from a re-analysis of the deposited data

Results flagged for a closer look

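Within the 4 arrays of the ApoE-null mother group, 31 sets of values were examined for a single array far from the others (28 chains and the mean scores of the 3 classes), and 3 were found, where chance gives about 1 in 20. Col4a1, a chain of the basement membrane network, had a signal of 3866 on ApoE-null mother 2, below the 4382 to 4464 of the other arrays of its group. Col4a4 had 1151 on ApoE-null mother 1, above the 949.7 to 960.2 of the others. Col16a1, a fibril-associated chain, had 125.9 on ApoE-null mother 3, below the 152.7 to 158.4 of the others. None of these chains had an unadjusted p under 0.05 between the crosses, and the cause of the single values was not tested.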

How the results depend on the processing

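No collagen chain was called by limma under any alternative or without any array, and over all probe sets the calls ranged from 0 to 18, the highest without wild-type mother 1. The number of chains lower at an unadjusted p under 0.05 was 2 to 6 when each array was left out, and 3 with quantile normalization, 5 with a pseudocount of 16 and 6 with array weights or no filter. Negative chains numbered 23 of 28, 20 to 25 of 28 with an array left out, 19 of 23 with the filter at the 60th percentile and 33 of 42 without a filter. With an array left out, the median was -0.20 to -0.03 for fibrillar, -0.14 to 0.0073 for basement membrane and -0.22 to -0.061 for the other chains.

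Of 361 values of 26 named chains over the alternatives, 343 kept direction and side of the threshold and 18 changed sign, all of differences that had not passed. With array weights Col4a4 became -0.016. On the mean of a gene's probe sets Col5a1 became -0.16, Col8a1 -0.34, Col4a6 0.072 and Col4a4 -0.11. Leaving out each array gave -0.048 to 0.25 for Col5a1, -0.10 to 0.0034 for Col1a1, -0.16 to 0.012 for Col3a1, -0.035 to 0.10 for Col4a4, -0.13 to 0.12 for Col4a3, -0.14 to 0.21 for Col8a1, -0.14 to 0.030 for Col6a1 and -0.22 to 0.039 for Col6a2. The cause was not tested. No paired analysis was possible because the labels give the groups no shared replicate numbers. Signals near the bacterial probe sets limit Col11a1, Col22a1 and the 14 chains below the filter.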
